A study of Mus musculus with 6 samples.

Results

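Tetraspanins are small membrane proteins that cross the membrane several times and gather integrins, immunoglobulin-family receptors and signalling enzymes into shared patches of the surface. In lymphocytes Cd81 organises signalling receptors at the surface. Cd37 and Cd53 are largely restricted to blood cells. The 8 tetraspanins described here, Cd9, Cd81, Cd37, Cd53, Cd63, Cd82, Cd151 and Tspan32, were taken by gene symbol from a table of 22099 genes. All 8 were present, in 13 transcript rows that were summed per symbol, and all 8 passed the filter for testing.

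The levels come from polyadenylated RNA of C57BL/6 mouse whole bone marrow, transduced with a retrovirus for BCR-ABL-p185 and YFP at day 0 and kept in culture for 14 days. All 6 cultures thus carried this oncogenic kinase, a fusion protein of acute lymphoblastic leukaemia. There were 2 libraries from Ikaros_ZnF4-/- cells (ZnF4 mutant), 2 from Ikaros_ZnF1-/- cells (ZnF1 mutant) and 2 from cells wild type for Ikaros (wt). The Ikaros protein (Ikzf1 gene) binds DNA through zinc fingers and regulates lymphoid development, and each mutant lacks 1 of its fingers. The labels call the cells transformed pro-B leukaemia cells and number the libraries of a group 1 and 2. They do not say whether these came from separate animals or cultures, and they mention no sorting of the transduced cells.

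The values are RPKM, which are reads scaled to transcript length and to library size, so they can be compared between genes as levels per length. The depth is unknown, and the sum of RPKM per library was 287007 to 345766. B lineage markers were present in every library: all 18 listed genes were tested, and their summed level was 2614 to 3939 RPKM. Transcripts of other marrow cells were present too. The 14 macrophage and myeloid markers found, none of them under 1 RPKM in all libraries, summed to 418.2 and 456.7 RPKM in the ZnF4 mutant, 1111 and 1224 RPKM in the ZnF1 mutant, against 402.5 and 447.2 RPKM in wt. The 10 granulocyte markers summed to 1626 RPKM in ZnF1 mutant replicate 2 and 531.7 RPKM in wt replicate 1, against 0.5 to 53.9 RPKM in the other 4 libraries, and S100a8 was the most abundant of them. Stromal and endothelial markers, with Lum at 0 throughout, summed to 89.8 and 89.2 RPKM in the ZnF4 mutant, 267.1 and 155.8 RPKM in the ZnF1 mutant, against 84.2 and 90.5 RPKM in wt, with Fn1 the most abundant. In bulk RNA, fewer cells of a type and less RNA per cell cannot be told apart.

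Among the 8 genes, Cd37 was the most abundant, at a mean of 336 RPKM over the 6 libraries, above 99.5% of the 11345 genes tested. Cd81 followed at 223 RPKM and Cd82 at 72.4 RPKM. Cd53 averaged 49.1 RPKM, Tspan32 29.3 RPKM, Cd151 14.6 RPKM, Cd9 9.23 RPKM and Cd63 5.20 RPKM. Cd53 and Tspan32 were the only neighbours in this order whose ranges did not overlap, at 42.9 to 57.3 against 23.2 to 35.3 RPKM. Within single libraries the order held more closely: in 6 of 6 libraries Cd37 stood above Cd81, Cd81 above Cd82 and Cd9 above Cd63, while Cd82 exceeded Cd53, and Cd151 exceeded Cd9, in 5 of 6 libraries. For every one of them but Cd53, an overlapping gene or an annotated pseudogene could share reads.

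**Figure D1:**
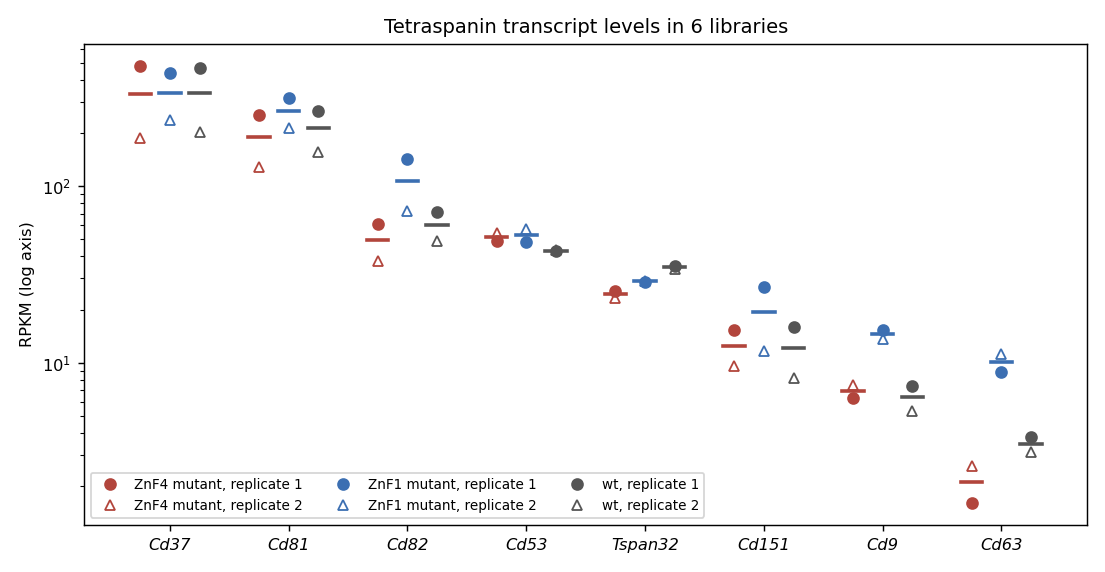
RPKM (log axis) of the 8 tetraspanins in each library, from the most to the least abundant. Filled circles are replicate 1, open triangles replicate 2 and bars the mean of 2 libraries. Cd63 and Cd9 stand highest in the ZnF1 mutant, and Cd37 and Cd81 differ mainly between replicate 1 and replicate 2.

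Cd37, Cd81, Cd151 and Tspan32 lie on mouse chromosome 7, Cd82 on chromosome 2, Cd53 on 3, Cd9 on 6 and Cd63 on 10 (RefSeq, GRCm38.p6). Tspan32 and Cd81 are close neighbours in the imprinted distal part of chromosome 7. In the RefSeq order H19, Mir675, Igf2, Ins2, Th and Ascl2 precede Tspan32, and Tssc4, Trpm5 and Kcnq1 follow Cd81. The noncoding gene R74862 comes between Tspan32 and Cd81 in that order and overlaps Cd81 on the other strand. To show what lies before the starts of these genes and of Cd9, whose level in the ZnF1 mutant was 2.28 times that in wt, the 210 bases that end 41 bases before the RefSeq start are given 5′ to 3′ (RefSeq, GRCm38.p6, matched by symbol for all 8 genes). Capitals mark GGGAA, the core of the motif that Ikaros is known to bind, or TTCCC, its reverse complement.
Cd9, chr6:125494801-125495010, minus strand: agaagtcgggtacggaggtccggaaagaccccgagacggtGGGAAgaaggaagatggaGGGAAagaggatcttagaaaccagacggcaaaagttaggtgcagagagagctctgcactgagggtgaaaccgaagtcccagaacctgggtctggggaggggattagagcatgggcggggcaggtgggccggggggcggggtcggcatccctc
Tspan32, chr7:143004796-143005005, plus strand: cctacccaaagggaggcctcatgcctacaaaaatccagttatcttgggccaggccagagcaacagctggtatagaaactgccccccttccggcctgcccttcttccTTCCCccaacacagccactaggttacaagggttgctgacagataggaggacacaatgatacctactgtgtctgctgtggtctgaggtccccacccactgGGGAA
Cd81, chr7:143052500-143052709, plus strand: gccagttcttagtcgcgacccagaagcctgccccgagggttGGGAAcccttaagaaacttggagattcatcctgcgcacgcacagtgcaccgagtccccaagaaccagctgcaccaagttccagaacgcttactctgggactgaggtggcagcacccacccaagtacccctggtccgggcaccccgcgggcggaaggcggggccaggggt

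The motif was found 2 times for Cd9, 2 times for Tspan32 and 1 time for Cd81, searching both strands. It occurred in at least 1 window for 6 of the 8 genes (7 of their 12 windows, including the 1 for Cd63, whose RefSeq start is not that of the transcript row with most of its level), and in 50.2% of all 32851 windows of the same length. A match is a description of these letters only.

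Differences between groups were tested with limma on log2(RPKM + 1) over all 11345 genes, with Benjamini-Hochberg adjustment and a threshold of 0.05. All fold changes are on that log2(RPKM + 1) scale, which understates changes of low genes. A second fit adds the replicate number as a block, because libraries with the same number deviated together. Where it changes a call, its adjusted p is given as the value with the replicate block. With the 3 comparisons sharing groups, their values are set side by side and are not independent of each other.

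In the ZnF4 mutant against the ZnF1 mutant, 5141 of the 11345 genes tested had a negative log2 fold change, and their median over all genes was 0.04. All 8 tetraspanins had a negative value there, with a median of −0.52. Cd63 fell, and it was the only one called without the block, where 3.75% of all genes tested were called lower and 5.37% in either direction. With the replicate block 5 of the 8 were called lower (Cd63, Cd82, Cd9, Cd81 and Cd151), where 19.2% of all genes were called lower and 35.1% in either direction. Both ZnF4 mutant libraries lay below both ZnF1 mutant libraries for 4 of the 8, Cd9, Cd63, Cd82 and Tspan32, as they did for 21.8% of all genes tested. None of the 8 had both ZnF4 mutant libraries above both, beside 21.7% of all genes.

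Cd63 is a tetraspanin of late endosomes, lysosomes and secretory granules. Its level was 1.6 and 2.6 RPKM in the ZnF4 mutant (replicates 1 and 2), 8.9 and 11.2 RPKM in the ZnF1 mutant, against 3.8 and 3.1 RPKM in wt. The ZnF1 mutant libraries were the highest and the ZnF4 mutant libraries the lowest, with no overlap between any of the groups. Between the mutants the log2 fold change (ZnF4 mutant against ZnF1 mutant) was −1.84 (SE 0.23, limma adjusted p = 0.022). Set against wt, the ZnF1 mutant value was 1.31 on the log2 scale (SE 0.23, limma adjusted p = 0.10, and 0.016 with the replicate block). The ZnF4 mutant differed from wt by −0.54 (limma adjusted p = 0.49, and 0.12 with the replicate block). The block call of the ZnF1 mutant against wt held in 3 of 6 fits with 1 library left out and was lost without either ZnF1 mutant library or wt replicate 2 (adjusted p of 0.076 to 0.095). Leaving out either library of the ZnF4 mutant or of the ZnF1 mutant ended the call between the mutants, with values of −2.08 to −1.61 and adjusted p of 0.092 to 0.16 in limma fits with fewer degrees of freedom. With the replicate block the call between the mutants held in 6 of 6 fits.

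Cd9 interacts with integrins and is carried by several blood and stromal cell types. It stood at 6.3 and 7.5 RPKM in the ZnF4 mutant, 15.3 and 13.6 RPKM in the ZnF1 mutant, against 7.4 and 5.3 RPKM in wt. The ZnF1 mutant libraries were above the other 4, and the ZnF4 mutant and wt overlapped. Its mean in the ZnF1 mutant was 2.28 times that in wt, at 14.4 ± 1.20 RPKM against 6.35 ± 1.48 RPKM (SD, n = 2 each). On the log2 scale it was 1.08 higher in the ZnF1 mutant than in wt (SE 0.21, limma adjusted p = 0.11, and 0.018 with the replicate block). Between the mutants its log2 fold change was −0.97 (limma adjusted p = 0.065, and 0.011 with the replicate block). With 1 library left out, the block calls held in 3 of 6 fits against wt, lost without either ZnF1 mutant library or wt replicate 2, and in 4 of 6 between the mutants, lost without either ZnF1 mutant library. The difference of the ZnF4 mutant from wt was 0.11, with a 95% interval of −0.40 to 0.63.

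Cd82 is known as a suppressor of metastasis that limits cell motility. Its level was 61.3 and 37.8 RPKM in the ZnF4 mutant, 142.5 and 72 RPKM in the ZnF1 mutant, against 71.6 and 49.1 RPKM in wt. Replicate 1 was the higher library in each group, and the ZnF1 mutant was the highest group within each replicate number. Its log2 fold change was −1.06 in the ZnF4 mutant against the ZnF1 mutant (SE 0.42, limma adjusted p = 0.26, and 0.0043 with the replicate block). For the ZnF1 mutant against wt it was 0.76 (limma adjusted p = 0.73, and 0.021 with the replicate block). Leaving out 1 library moved that value between 0.28 and 1.25 without the block, and the block call held in 1 of 6 fits, that without ZnF1 mutant replicate 2 (adjusted p of 0.032 to 0.16 over the 6). The block call between the mutants held in 6 of 6. Its 2 transcript rows, of 1693 and 1827 bases, gave 66.1% and 33.9% of its mean. Both rows had the same order of groups within each replicate number: the row of 1827 bases stood at 21.6 and 12.6 RPKM in the ZnF4 mutant, 49.7 and 22.5 RPKM in the ZnF1 mutant, against 25.2 and 15.8 RPKM in wt.

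Cd151 binds laminin-binding integrins. It stood at 15.4 and 9.6 RPKM in the ZnF4 mutant, 26.8 and 11.7 RPKM in the ZnF1 mutant, against 15.9 and 8.2 RPKM in wt. All 3 groups overlapped, and replicate 1 was 1.60 to 2.29 times replicate 2 within them. Within replicate numbers the ZnF1 mutant was 1.69 and 1.43 times wt. Cd151 had a log2 fold change of 0.59 in the ZnF1 mutant against wt (SE 0.50, limma adjusted p = 1, and 0.047 with the replicate block). Its value between the mutants was −0.51 (limma adjusted p = 0.70, and 0.036 with the replicate block). With 1 library left out, the value against wt ranged from 0.03 to 1.16 without the block, and the block call held in 2 of 6 fits, those without a ZnF4 mutant library (adjusted p of 0.048 to 0.26 over the 6). Between the mutants it held in 1 of 6, that without ZnF1 mutant replicate 2.

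Of the 8 tetraspanins, 7 had a positive log2 fold change in the ZnF1 mutant against wt, and the median was 0.47. Over all 11345 genes tested, 5400 had a positive value and the median was −0.01. Without the block limma called 0 of the 8 and 0 of all genes (0% called). An unadjusted p under 0.05 was found for 2 of the 8, Cd9 and Cd63, and for 1281 of all genes. With the replicate block 4 were called higher, Cd63, Cd9, Cd82 and Cd151, where 10.4% of all genes were called higher and 2.88% lower (13.2% in either direction). Both ZnF1 mutant libraries lay above both wt libraries for Cd9, Cd53, Cd63 and Cd82, as they did for 18.3% of all genes. Tspan32 alone lay below, beside 12.7% of all genes.

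**Figure D2:**
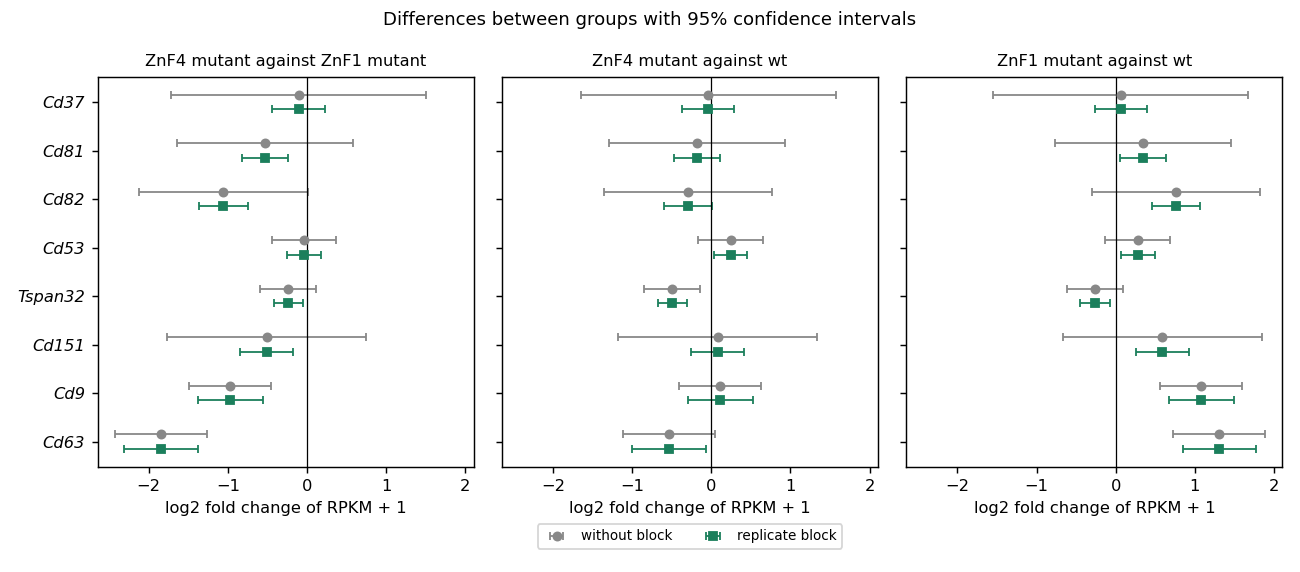
Log2 fold change of RPKM + 1 for each tetraspanin in the 3 comparisons, with 95% confidence intervals, from limma without (grey circles) and with (green squares) the replicate block. The point values are the same in both fits, and the intervals of Cd37, Cd81, Cd82 and Cd151 are the ones that narrow most with the block. Cd63 has the lowest value in the ZnF4 mutant against the ZnF1 mutant, at −1.84.

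Macrophage and myeloid transcripts had their highest sums in the ZnF1 mutant. All of the 8 tetraspanins but Tspan32 had their highest means in that group. For Cd37 the means were close, at 338.6 RPKM against 334.1 in the ZnF4 mutant and 336.4 in wt. Cd151 and Cd82 also differed between replicate numbers. ZnF1 mutant replicate 2 had the highest macrophage sum. Its Cd151 level (11.7 RPKM) lay above replicate 2 of the ZnF4 mutant and wt (9.6 and 8.2 RPKM). It lay below their replicate 1 (15.4 and 15.9 RPKM). Cd82 in that library (72 RPKM) was above wt replicate 2 (49.1 RPKM) and close to wt replicate 1 (71.6 RPKM). The list had a median log2 fold change of −1.21 in the ZnF4 mutant against the ZnF1 mutant, with 14 of 14 lower. Limma called 8 of them lower without the block, beside 3.75% of all genes. Its median was 1.35 in the ZnF1 mutant against wt, with 14 of 14 higher and 0 called. With the replicate block 12 were called higher, beside 10.4% of all genes. Lyz2, its most abundant gene, which encodes a lysozyme of macrophages, stood at 119.2 and 148 RPKM in the ZnF4 mutant, 357.7 and 426 RPKM in the ZnF1 mutant, against 102.2 and 177.8 RPKM in wt. In the ZnF4 mutant against wt the median of the list was 0.15, with 9 higher and 5 lower, while Cd63 had −0.54. Stromal and endothelial markers had a median of −0.88 between the mutants, with 9 of 11 lower. Their median was 1.21 in the ZnF1 mutant against wt, with 10 of 11 higher. Macrophages and stromal cells are known to express Cd9, Cd63, Cd82 and Cd151. The part of these cells in the tetraspanin differences was not tested.

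**Figure D3:**
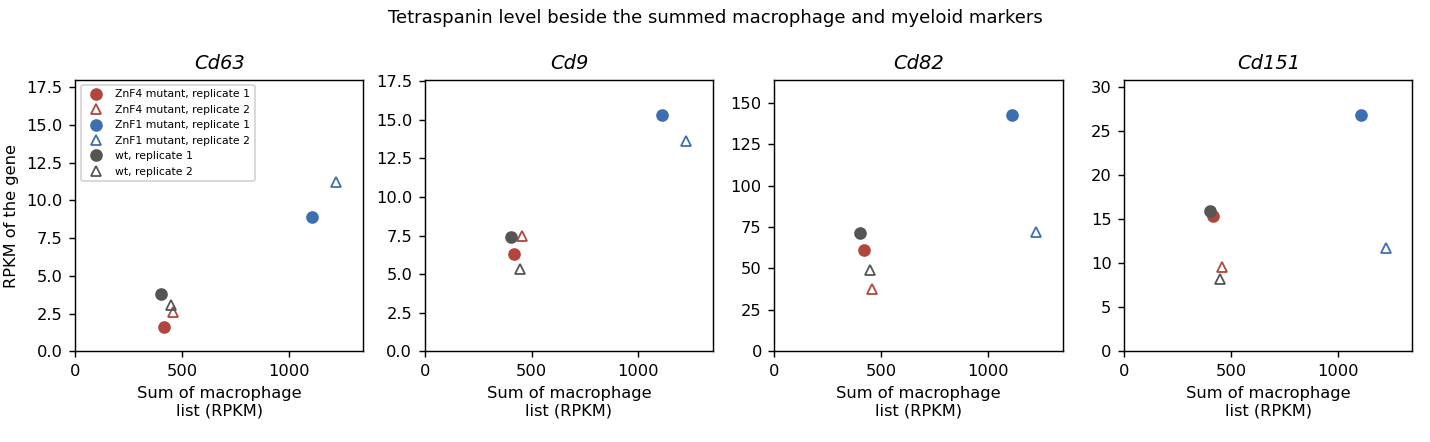
RPKM of Cd63, Cd9, Cd82 and Cd151 (vertical axes) against the summed RPKM of the macrophage and myeloid list (horizontal axes), 1 point per library, filled circles for replicate 1 and open triangles for replicate 2. The 2 ZnF1 mutant libraries stand apart at sums of 1111 and 1224 RPKM, and the other 4 lie between 402.5 and 456.7 RPKM.

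Cd37 and Cd81, the most abundant pair, differed more between replicate numbers than between groups. Cd37 stood at 481 and 187.3 RPKM in the ZnF4 mutant, 440.2 and 237.1 RPKM in the ZnF1 mutant, against 469.8 and 203 RPKM in wt. Replicate 1 was 2.57, 1.86 and 2.31 times replicate 2 in these groups. Group means lay within 334 to 339 RPKM. Its log2 fold changes were −0.11 in the ZnF4 mutant against the ZnF1 mutant, −0.04 in the ZnF4 mutant against wt and 0.06 in the ZnF1 mutant against wt. With the replicate block the 95% intervals of these values were −0.44 to 0.23, −0.37 to 0.29 and −0.27 to 0.40. The sign of each of the 3 values turned when some single libraries were left out, and that of the ZnF1 mutant against wt also with quantile normalization (−0.04).

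Cd81 stood at 252.7 and 128.8 RPKM in the ZnF4 mutant, 318.1 and 214.7 RPKM in the ZnF1 mutant, against 268 and 156.9 RPKM in wt. All groups overlapped, and within each replicate number the ZnF1 mutant was highest and the ZnF4 mutant lowest. Cd81 had a log2 fold change of −0.53 in the ZnF4 mutant against the ZnF1 mutant (SE 0.44, limma adjusted p = 0.63, and 0.023 with the replicate block). With 1 library left out this value ranged from −1.02 to −0.05 without the block, and the block call held in 2 of 6 fits, those without replicate 1 of either mutant (adjusted p of 0.033 to 0.15 over the 6). Against wt, the ZnF1 mutant value was 0.35 (limma adjusted p = 0.12 with the replicate block), and the ZnF4 mutant value was −0.18 (0.35 with it).

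The difference between replicate numbers was read from the block fit after its size had been seen. Replicate 2 against replicate 1 gave a log2 fold change of −1.15 for Cd37, −0.88 for Cd151, −0.77 for Cd81 and −0.73 for Cd82, with limma adjusted p of 0.0022 to 0.0041. For Cd9, Cd53, Cd63 and Tspan32 the values were −0.12, 0.14, 0.18 and −0.06 and did not pass (limma adjusted p of 0.15 to 0.48). In this fit 34.2% of all genes tested were called lower in replicate 2 and 18.3% higher (52.5% in either direction), so the share of the 8 was near the background. Replicate 1 was above replicate 2 in all 3 groups for 44.3% of all genes, and below it for 26.9%. Among the 8 tetraspanins it was above in all 3 groups for Cd37, Cd81, Cd82 and Cd151, and Cd53 was lower in replicate 1 in all 3 groups. The labels do not say what the replicate numbers stand for.

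**Figure D4:**
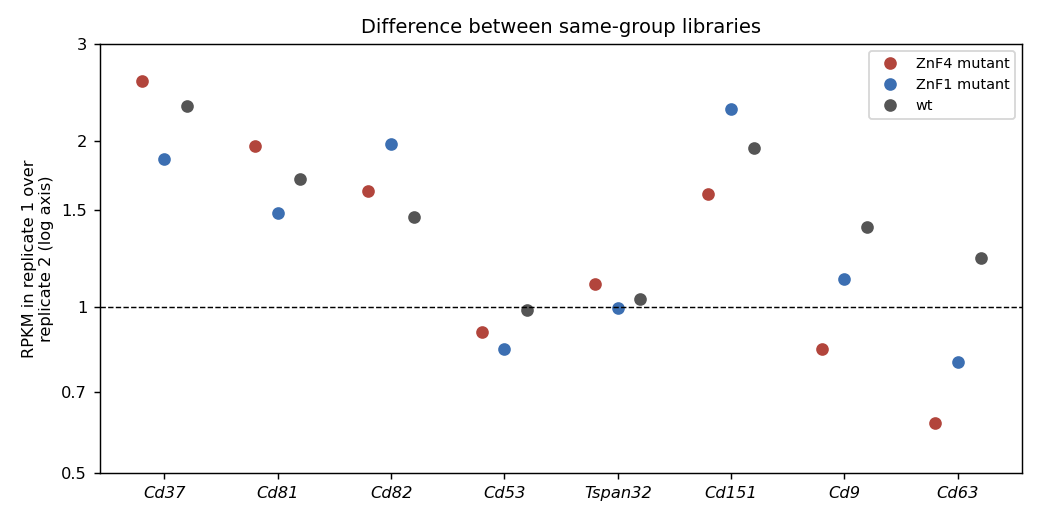
RPKM in replicate 1 over RPKM in replicate 2 (log axis) for each tetraspanin, 1 point per group, with a dashed line at 1. Cd37, Cd81, Cd82 and Cd151 lie above 1 in all 3 groups, between 1.46 and 2.57, while the other 4 genes lie between 0.615 and 1.40.

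Tspan32, a tetraspanin of blood cells known to restrain T cell proliferation, was highest in wt. It stood at 25.6 and 23.2 RPKM in the ZnF4 mutant, 28.8 and 28.9 RPKM in the ZnF1 mutant, against 35.3 and 34.1 RPKM in wt. None of the groups overlapped, with wt highest and the ZnF4 mutant lowest. The ZnF4 mutant mean was 0.703 times that of wt, at 24.4 ± 1.70 RPKM against 34.7 ± 0.849 RPKM (SD, n = 2 each). Tspan32 had a log2 fold change of −0.49 in the ZnF4 mutant against wt (SE 0.14, limma adjusted p = 0.21, and 0.014 with the replicate block). Against wt, the ZnF1 mutant differed by −0.26 (limma adjusted p = 0.71, and 0.085 with the block), and the mutants differed by −0.23 (0.48, and 0.061 with the block).

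Tspan32 was the only one of the 8 called in the ZnF4 mutant against wt, and only with the replicate block, where 7.92% of all genes were called lower and 8.02% higher (15.9% in either direction). Without the block limma called 0 of the 8, beside 1.3% of all genes called lower and 1.43% higher (2.72% in either direction). Both ZnF4 mutant libraries lay below both wt libraries for Cd63 and Tspan32 (13.8% of all genes) and above them for Cd53 (17.8% of all genes). An unadjusted p under 0.05 was found for 1 of the 8 and for 1329 of the 11345 genes tested. The median over the 8 was −0.11, beside 0.04 over all genes tested. With single libraries left out, the block fit called Tspan32 in 2 of 6 fits, those without a ZnF1 mutant library. Over all 6 of these fits its values were −0.55 to −0.44.

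Cd53, a leukocyte tetraspanin that affects lymphocyte adhesion and homing, stood at 48.6 and 54 RPKM in the ZnF4 mutant, 48.1 and 57.3 RPKM in the ZnF1 mutant, against 42.9 and 43.4 RPKM in wt. Both mutants lay above wt and overlapped each other. Against wt its log2 fold change was 0.24 in the ZnF4 mutant and 0.28 in the ZnF1 mutant, neither called by limma (adjusted p = 0.82 and 0.77, and 0.12 and 0.099 with the replicate block). The ZnF4 mutant and the ZnF1 mutant differed by −0.03, with a 95% interval of −0.25 to 0.18 with the block.

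The genes around Tspan32 and Cd81 on chromosome 7 had levels that differed widely from gene to gene. H19, an imprinted noncoding RNA, stood at 2370 and 2739 RPKM in the ZnF4 mutant, 0.4 and 6.8 RPKM in the ZnF1 mutant, against 13.3 and 17.7 RPKM in wt. The fetal growth factor gene Igf2 stood at 90.8 and 253.1 RPKM in the ZnF4 mutant, 0.1 and 1.3 RPKM in the ZnF1 mutant, against 0.1 and 0.4 RPKM in wt. Between them and Tspan32, Ins2 and Th were listed at 0 in all 6 libraries and Ascl2 at no more than 0.1 RPKM. H19 and Igf2 rose in the ZnF4 mutant against wt (limma adjusted p = 0.020 and 0.0094). Mir675 and Igf2os, which follow them in the RefSeq order, rose too (limma adjusted p = 0.014 and 0.021). Whether reads of H19 and Igf2 were also counted for Mir675 and Igf2os is not known, so these may not be separate changes. Tspan32 had its lowest levels in the same libraries, called against wt with the replicate block only, and Cd81 was not called in that comparison. In the ZnF1 mutant H19 and Tspan32 both stood below wt (Tspan32 at 28.8 and 28.9 against 35.3 and 34.1 RPKM). Limma called neither of these differences, with or without the replicate block. A link between these levels was not tested.

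Tssc4, on the other side of Cd81, stood at 70 and 41.8 RPKM in the ZnF4 mutant, 56.2 and 35.9 RPKM in the ZnF1 mutant, against 63.6 and 33.6 RPKM in wt, and was not called by limma. R74862, which overlaps Cd81 on the other strand, stood at 0.9 to 2.3 RPKM. Trpm5 and Kcnq1 were listed at 0 throughout.

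**Figure D5:**
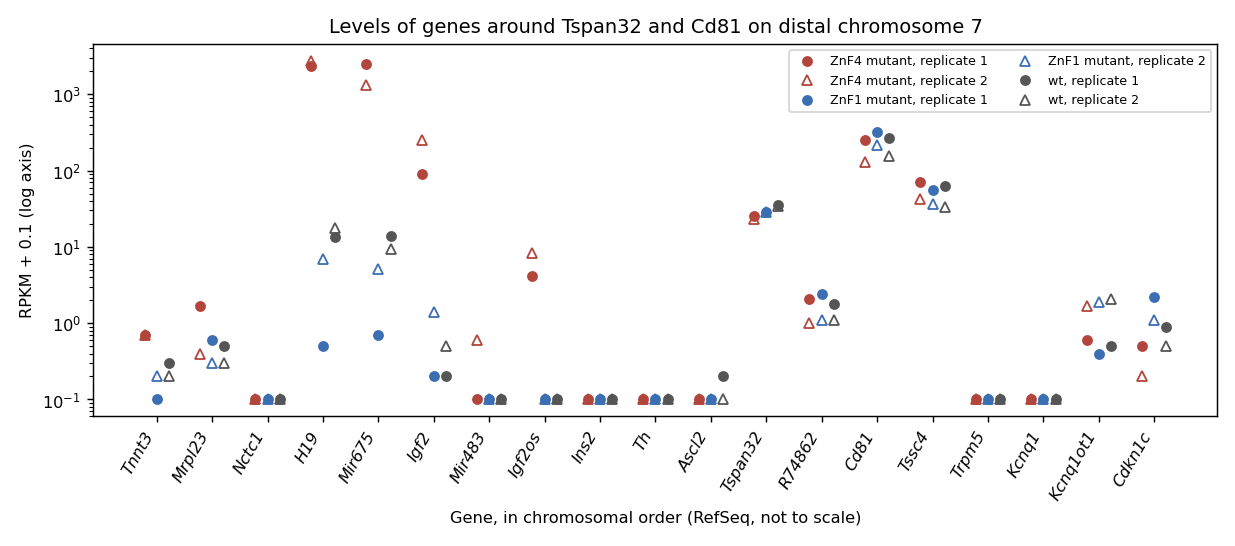
RPKM + 0.1 (log axis) of the genes from Tnnt3 to Cdkn1c in chromosomal order (RefSeq, not to scale), 1 point per library, filled circles for replicate 1 and open triangles for replicate 2. H19, Mir675, Igf2 and Igf2os stand high in the ZnF4 mutant. Mir675 and Igf2os may share reads with H19 and Igf2. Tspan32 lies between 23.2 and 35.3 RPKM and Cd81 between 128.8 and 318.1 RPKM in the 6 libraries.

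Of the other tetraspanin genes, 23 were listed and 12 tested. Of the rest, 10 were under 1 RPKM in all libraries, 2 of them (Tspan10 and Prph2) at 0. Among the 12 tested, 10 had a negative log2 fold change in the ZnF4 mutant against the ZnF1 mutant. Limma called 2 lower and 0 higher in the ZnF4 mutant against the ZnF1 mutant, and 7 lower and 1 higher with the replicate block (median log2 fold change −0.58), where 3.75% of all genes were called lower without the block and 19.2% with it. Against wt it called 1 lower and 0 higher in the ZnF4 mutant, and 4 lower and 2 higher with the block (median −0.30), beside 7.92% of all genes lower and 8.02% higher with the block. The ZnF1 mutant had 0 called against wt, and 4 higher and 1 lower with the block (median 0.23), beside 10.4% of all genes higher and 2.88% lower.

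Tspan13, the most abundant of them, stood at 58 and 35.8 RPKM in the ZnF4 mutant, 128.6 and 79.5 RPKM in the ZnF1 mutant, against 157.1 and 113.5 RPKM in wt. The ZnF4 mutant libraries lay below the other 4, with a difference of −1.53 on the log2 scale against wt (SE 0.36, limma adjusted p = 0.13, and 0.0012 with the replicate block). The ZnF4 mutant against the ZnF1 mutant gave −1.13 (0.16, and 0.0017 with the block). Tspan6 fell in the ZnF4 mutant, to 0.3 and 0.3 RPKM, against 2.4 and 3.2 RPKM in the ZnF1 mutant, with 2.7 and 4.1 RPKM in wt. Its log2 fold change was −1.74 against wt (SE 0.22, limma adjusted p = 0.026) and −1.54 against the ZnF1 mutant (limma adjusted p = 0.027).

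Tspan15, which escorts the membrane protease Adam10, was listed at 0 in both ZnF4 mutant libraries, against 3 and 2.1 RPKM in the ZnF1 mutant, with 1.1 and 0.9 RPKM in wt. It fell in the ZnF4 mutant against the ZnF1 mutant (limma adjusted p = 0.014). Tspan3 stood at 20.1 and 18.4 RPKM in the ZnF4 mutant, 19.6 and 14.3 RPKM in the ZnF1 mutant, against 10.5 and 9.4 RPKM in wt, above wt in all 4 mutant libraries. Its limma adjusted p against wt was 0.11 for the ZnF4 mutant and 0.23 for the ZnF1 mutant, and 0.0066 and 0.018 with the replicate block. Tspan5 was at 15.3 and 13.2 RPKM in the ZnF4 mutant, 10.2 and 8.8 RPKM in the ZnF1 mutant, against 9.3 and 6.7 RPKM in wt, higher in the ZnF4 mutant than in both other groups with the block only (limma adjusted p = 0.012 and 0.0071). Tspan4, Tspan17, Upk1b and Rom1 were also called with the block only, each of them lower in the ZnF4 mutant than in the ZnF1 mutant. Upk1b, a uroplakin of urothelium, stood at 0.4 and 0.2 RPKM in the ZnF4 mutant, 6 and 2.1 RPKM in the ZnF1 mutant, against 0.6 and 0.3 RPKM in wt. The abundant Tspan14 and Tspan31 were called in no comparison, at 45.5 to 71.6 and 37 to 52.2 RPKM.

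Of 26 genes for known partners of tetraspanins, 24 were tested. Among these, 22 had a negative log2 fold change in the ZnF4 mutant against the ZnF1 mutant. Limma called 3 lower and 0 higher in the ZnF4 mutant against the ZnF1 mutant, and 14 lower and 1 higher with the replicate block, with a median log2 fold change of −0.50. The shares of all genes called lower were 3.75% without the block and 19.2% with it. The ZnF4 mutant against wt gave 1 lower and 0 higher, and 5 lower and 3 higher with the block (7.92% and 8.02% of all genes), with a median of −0.04. For the ZnF1 mutant against wt the calls were 0, and 9 higher and 1 lower with the block (10.4% and 2.88% of all genes), with a median of 0.60. The 3 genes lower in the ZnF4 mutant than in the ZnF1 mutant were Itgb2, Cd44 and Cd4, the last at 0 to 2 RPKM in all libraries.

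Itgb2, the beta chain of leukocyte integrins, stood at 27.3 and 27.2 RPKM in the ZnF4 mutant, 75.2 and 68 RPKM in the ZnF1 mutant, against 48.4 and 33.2 RPKM in wt (limma adjusted p = 0.032 between the mutants). Cd44, a hyaluronan receptor, stood at 26.4 and 24.7 RPKM in the ZnF4 mutant, 58.4 and 53.2 RPKM in the ZnF1 mutant, against 35.3 and 30.8 RPKM in wt (limma adjusted p = 0.027). Both are also expressed by macrophages. Epcam, an adhesion protein that joins tetraspanin patches, fell in the ZnF4 mutant to 1.2 and 1.5 RPKM, against 21.6 and 21.4 RPKM in wt (limma adjusted p = 0.034). Its ZnF1 mutant level was 4.4 and 1 RPKM (limma adjusted p = 0.10 against wt, and 0.018 with the replicate block).

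Igsf8, an immunoglobulin-family protein bound by Cd9 and Cd81, stood at 47.4 and 24.9 RPKM in the ZnF4 mutant, 59 and 36.1 RPKM in the ZnF1 mutant, against 42.2 and 19.6 RPKM in wt. With the block only, it was higher in the ZnF1 mutant than in wt and lower in the ZnF4 mutant than in the ZnF1 mutant (limma adjusted p = 0.022 and 0.036). Ifitm3, which associates with Cd81, was above wt in both mutants within each replicate number, at 66 and 39 RPKM in the ZnF4 mutant, 75.4 and 43.9 RPKM in the ZnF1 mutant, against 41.1 and 18 RPKM in wt (limma adjusted p = 0.011 in both with the replicate block). Ptprc, a leukocyte phosphatase, and Prkcb, a protein kinase C, stood at 41.7 to 77.1 and 43.6 to 84.3 RPKM and were lower in the ZnF4 mutant than in the ZnF1 mutant with the block only (limma adjusted p = 0.0050 and 0.026).

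The other partners called with the block in the ZnF4 mutant against the ZnF1 mutant were the integrin chains Itga4, Itga6, Itgb7 and Itgal, the proteases Adam10 and Adam17, the adaptor Sdcbp and Ifitm1, all lower, and the complement receptor Cr2, higher at 0.2 to 1.1 RPKM over all libraries. Against wt with the block, the ZnF4 mutant was also higher for Cr2 and Itgal and lower for Itga4, Itga6, Cd44 and Ptprc. The ZnF1 mutant was higher for Ptgfrn, Itgb7, Itgal, Itgb2, Cd36, Cd44 and Cd4 in the same fit.

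The genes most like each tetraspanin over the 6 libraries were named by the highest Pearson correlation of log2(RPKM + 1), given as a description over only 6 libraries that share groups and replicate numbers. Cd37 had 780 genes at 0.95 or above, led by Bcl7b, Id3 and Ring1. Cd81 had 327, led by Pygb, Slc15a4 and Nat15. Cd82 had 195, led by Ecm1, Pdlim7 and Cat, and Cd151 had 186, led by Tmem43 and Dctn5. Cd63 had 111, led by Igf1, Sned1 and Plxdc2, and Cd9 had 107, led by Plk2, Creg1 and P2rx4. Tspan32 had 50, led by a gene whose symbol was lost in the table, Slain1 and 2210404O07Rik. Cd53 had 6, led by H2-M2, Qpct and Arl3. Among the 8 themselves the highest correlations were 0.904 for Cd37 and Cd81, 0.901 for Cd81 and Cd151, 0.901 for Cd82 and Cd151 and 0.899 for Cd9 and Cd63, and the lowest was −0.718 for Cd53 and Tspan32.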

How the data were processed

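Polyadenylated RNA of 6 cultures was measured as RPKM per RefSeq transcript, which the authors deposited to 1 decimal. Per the submitters' processing notes, TopHat, bedtools and the mouse build mm9 were used. Read counting, strand and versions are not given in the sources used here, so values of genes with an overlapping antisense gene (Cd9, Cd37, Cd81, Cd82, Cd151 and Tspan32 in GENCODE) or an annotated pseudogene (Cd9 and Cd63) are uncertain. The authors' transcript lengths were used only to describe rows.

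The 26531 rows were summed to 22099 symbols, after 39 of 40 symbols turned into numbers had been restored by accession, and 1 row without a gene was left out. The 11345 genes that reached 1 RPKM in 2 or more libraries were fitted with limma 3.58.1 (R 4.3.3, intensity trend, 2-sided) on log2(RPKM + 1), all 6 libraries in 1 fit of 3 group means with 3 residual degrees of freedom. The fit was also run on simulated data, where the noise for the block-free fit was drawn independently for each library. In the real data libraries with the same number deviated together, so that run cannot vouch for the block-free calls. The labels number the replicates. How libraries with 1 number departed from the means of their groups correlated across genes at 0.754 for the ZnF4 mutant and wt, 0.5 for the ZnF1 mutant and wt and 0.715 for the ZnF4 and ZnF1 mutants, so a second fit, blocked by replicate number (2 residual degrees of freedom), is given where it changes a call. With 2 libraries a group, p-values measure only the spread between these libraries, which may be technical. Depth is unknown, so no counting interval is given.

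The members and lists were chosen with earlier results of these data known. Named genes are the 8 members, the other tetraspanins and partners called in either fit or among the 3 most abundant of their list, tested genes around Tspan32 and Cd81, the most abundant gene of each marker list and the 3 genes most correlated with each member. Genes at 0 beside Tspan32 and Cd81 and the lists' genes named for their background role were added after their values were seen. A few genes that this rule names are not reported here. Lists of megakaryocyte, mast, T and NK, erythroid and plasma cell markers summed to 20.9 to 49.6, 0.5 to 30.8, 22.4 to 121.1, 0.6 to 26.7 and 127.5 to 472.7 RPKM over the 6 libraries, led by Pf4, Cpa3, Cd2, Hbb-b2 and 2010001M09Rik. Alternatives tried were other pseudocounts, filters, scalings, the highest row per symbol, fits of 4 libraries, no intensity trend, and libraries left out.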

Additional observations from a re-analysis of the deposited data

How the results depend on the processing

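With the replicate block in place of no block, the genes called numbered 1502 in the ZnF1 mutant against wt (0 without it), 1809 in the ZnF4 mutant against wt (309) and 3979 in the ZnF4 mutant against the ZnF1 mutant (609), and 4, 1 and 5 of the tetraspanins were called in place of 0, 0 and 1. The pairing comes from the labels' replicate numbers. Settings that join the block with another choice were chosen after seeing the data, and under quantile normalization, the highest row per symbol and a pseudocount of 0.1 they called 1443, 1471 and 1556 genes for the ZnF1 mutant against wt, 1760, 1782 and 1874 for the ZnF4 mutant against wt and 4352, 3944 and 4006 between the mutants, with 4, 1 and 5 tetraspanins each time. Quantile normalization moved the split of higher to lower genes with the block to 920 and 523 (1175 and 327 as reported) in the ZnF1 mutant against wt, and to 2356 and 1996 (1803 and 2176) between the mutants. Without the block, shifting medians called 1 gene in the ZnF1 mutant against wt. A minimum of 5 RPKM called 176 and 323 genes in the ZnF4 mutant against wt and against the ZnF1 mutant, fits of 4 libraries 86 and 234, and leaving out wt replicate 1 and ZnF1 mutant replicate 2 together 0 and 0, with 0 tetraspanins called. Cd63 between the mutants was then −1.69 (limma adjusted p = 0.22).

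Leaving out single libraries gave 0 to 0 genes (0 to 945 with the block) in the ZnF1 mutant against wt, 0 to 119 (404 to 2044) in the ZnF4 mutant against wt and 0 to 306 (1291 to 2959) between the mutants. The tetraspanins called were then 0 (0 to 3), 0 (0 to 1) and 0 to 1 (3 to 4). Signs turned only for values that were not called in the block-free fit, where Cd63 between the mutants was the only member value called. Among the values called with the block, Cd151 between the mutants turned, to 0.05 in the block-free fit without ZnF1 mutant replicate 1. Over the fits without single libraries, blocked or not, Cd37 ranged from −0.54 to 0.67 in the ZnF1 mutant against wt, −0.72 to 0.64 in the ZnF4 mutant against wt and −0.78 to 0.57 between the mutants. Cd151 ranged from −0.36 to 0.52 in the ZnF4 mutant against wt and −1.08 to 0.05 between the mutants. Cd81 ranged from −0.04 to 0.73 in the ZnF1 mutant against wt and −0.67 to 0.30 in the ZnF4 mutant against wt, Cd82 from −0.64 to 0.05 and Cd9 from −0.14 to 0.37 in the ZnF4 mutant against wt, and Cd53 from −0.16 to 0.09 between the mutants. Without the pair of granulocyte-rich libraries, Cd37 (0.56) and Cd81 (0.20) in the ZnF4 mutant against wt and Cd53 (0.09) between the mutants also turned, and Cd37 in the ZnF1 mutant against wt turned with quantile normalization (−0.04, with and without the block). Of 240 member values under the other planned settings, 235 kept direction and call, 4 reversed and 1 lost its call. The cause of these shifts was not tested. RPKM given to 1 decimal limits the lowest genes, and with 2 libraries a group an exact permutation test of 1 gene cannot go below p = 0.333.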
